A study of Mus musculus with 8 samples.

Results

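The tensins are a family of 4 genes, Tns1, Tns2, Tns3 and Tns4, and all 4 were among the 18768 genes of the count table. The family was chosen by its gene names, and it was picked on these same counts, because Tns1 and Tns3 differed in opposite directions between the cell line labels. All 4 genes passed the filter on low counts, which left 15153 genes. RNA was sequenced from fibrosarcoma cell lines raised in mice with the carcinogen methylcholanthrene (MCA), injected under the skin. MC010 and MC011 came from tumors of IRF8 KO mice, whose strain is not given in the sources used here, and MC654 and MC659 came from tumors of WT C57BL/6 mice. The ages of the mice are likewise not given. Dissociated tumor cells were passaged in RPMI medium with serum until stable, with no further treatment named, and each of the 4 lines gave 2 libraries. The purpose of the comparison was to find genes whose RNA depends on IRF8, a transcription factor best known from blood cells.

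Each label thus holds 2 lines, and each line stands for 1 tumor, so that a difference between labels and a difference between tumors cannot be told apart. Nothing in the labels says whether the libraries of a line came from separate cultures, and p-values measure the spread between libraries. Library totals ran from 74063616 to 116206078 counts, and 3 counts corresponded to 0.0262 to 0.0408 CPM (counts scaled to the library total, with TMM factors). Irf8 RNA went against the labels: it had 442 and 347 counts in MC010, 32 and 10 in MC011, 1 and 2 in MC654, and 1 and 0 in MC659. The study's PCR genotyping typed MC010 and MC011 as IRF8 KO and MC654 and MC659 as WT. Whether the Irf8 counts include the deleted part of the gene was not tested, so the text speaks of libraries labelled IRF8 KO or WT. The mesenchymal marker vimentin (Vim) was at 4532 CPM or more in every library, the leukocyte marker Ptprc averaged at most 0.167 CPM in any line, and the summed endothelial markers (4 of 6 in the table) stayed at or below 0.912 CPM. The summed epithelial markers (7 of 9 in the table) were at 39.9 to 567 CPM in the libraries labelled IRF8 KO and 115 to 129 CPM in those labelled WT, where the simple-epithelial keratin Krt8 averaged 284 CPM for MC010 but 1.29 CPM for MC011. The summed hematopoietic markers (5 of 10 in the table) were at 5.73 to 7.39 and 9.77 to 11.6 CPM, and the summed mesenchymal markers (9 of 9) at 8739 to 9681 and 13602 to 14941 CPM. Without fibronectin (Fn1), the only mesenchymal marker called lower under IRF8 KO, against 3 called higher, the mean sums of the other 8 were 8158 CPM for MC010, 6996 CPM for MC011, 6018 CPM for MC654 and 6729 CPM for MC659.

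Tensins are proteins of cell-matrix adhesions. Their carboxy-terminal end carries an SH2 domain, which binds tyrosine-phosphorylated proteins, and a PTB domain, which binds the cytoplasmic tails of beta integrins. Tns1, Tns2 and Tns3 also have a longer amino-terminal region, and Tns1 and Tns3 bind actin filaments, so that they can tie fibronectin-bound integrins to the cytoskeleton. Tns4, also called cten, is short and lacks that amino-terminal region. In mammary epithelial cells, EGF is known to lower Tns3 and to raise Tns4.

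The genes lie apart from each other, except that Tns3 and Tns4 share a chromosome. On GRCm38, Tns1 (ENSMUSG00000055322) spans chr1:73910231-74124449 on the minus strand, with 22 annotated transcripts and a longest coding sequence of 1888 codons. Tns2 (ENSMUSG00000037003) is a compact gene of 15989 bases at chr15:102100413-102116401 on the plus strand, with 1407 codons. Tns3 (ENSMUSG00000020422) spans chr11:8431652-8664535 on the minus strand, with 1440 codons. Tns4 (ENSMUSG00000017607) lies at chr11:99065678-99089306 on the minus strand, and with 696 codons it is the shortest of the 4. No other annotated gene overlaps any of them, so reads from an opposite strand or a neighbour have no annotated source here. The table counts reads per gene and does not tell the transcripts of a gene apart.

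The 250 bases before the RefSeq start of Tns1 and Tns3 are shown because these are the members whose RNA differed most between the labels, in opposite directions, while the study concerns a transcription factor. They are given 5′ to 3′ along the gene from GRCm38.p6, at chr1:74124549-74124798 and chr11:8664536-8664785, both on the minus strand, and capitals mark the GC box GGGCGG on either strand.
Tns1: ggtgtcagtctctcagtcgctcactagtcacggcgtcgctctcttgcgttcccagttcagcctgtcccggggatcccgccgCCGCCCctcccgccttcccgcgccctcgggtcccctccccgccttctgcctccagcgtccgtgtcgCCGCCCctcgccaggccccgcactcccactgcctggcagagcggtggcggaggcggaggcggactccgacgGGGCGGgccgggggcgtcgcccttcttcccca
Tns3: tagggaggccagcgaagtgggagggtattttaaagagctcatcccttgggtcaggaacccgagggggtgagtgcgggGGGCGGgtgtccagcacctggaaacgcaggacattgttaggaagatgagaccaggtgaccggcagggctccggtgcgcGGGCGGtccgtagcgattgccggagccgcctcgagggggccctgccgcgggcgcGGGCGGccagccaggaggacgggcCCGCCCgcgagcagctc
These windows were alike in composition. The Tns1 window held 30 CpG dinucleotides at a GC content of 74.4%, and the Tns3 window held 24 at 69.6%, against a median of 6 CpGs and 52.4% over 32851 RefSeq promoter windows of the same length. Of those windows, 94.1% had fewer CpGs than Tns1 and 88.0% fewer than Tns3. The GC box was found 3 times before Tns1 and 4 times before Tns3, and 32.7% of all windows held at least 1. The window of Tns2, at chr15:102102684-102102933 on the plus strand, differed from both, with 2 CpGs and no GC box. Unlike the other windows, it lies inside the annotated gene, which begins at 102100413. The bases before that outer start were not examined. The letters GAAANNGAA of interferon response elements, which 7.13% of all windows held on either strand, were in none of these 3 windows. The same was true of GGAATG, the TEAD element (12.6% of windows), of TATAAA (12.4%) and of the CArG box of serum response factor (1.47%). A match or its lack describes these letters in this window only.

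Tns1 and Tns3 were on opposite sides of the label comparison. Tns1 RNA was 8.97-fold higher in the libraries labelled IRF8 KO, Tns3 RNA was 3.72-fold lower, and Tns2 and Tns4 had overlapping ranges. Because the pair was chosen on this contrast, these values are a description and carry no test. The SEs of label differences given below treat the 2 libraries of a line as independent, so they can be too small. Among all 15153 genes, 22.5% were called between the labels at an adjusted p under 0.05 (edgeR) and a log2 fold change over 0.59 in size, 13.7% as higher and 8.72% as lower in the libraries labelled IRF8 KO.

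Tns1 is the founding member, known from fibrillar adhesions, where integrin-bound fibronectin is drawn into fibrils. The MC010 libraries had 105 and 105 CPM of it, those of MC011 129 and 120.3 CPM, those of MC654 13.7 and 11.2 CPM, and those of MC659 13.1 and 13.3 CPM. All 4 libraries labelled IRF8 KO lay above all 4 labelled WT. The share of all genes that separate in this way was not counted, and Tns1 was picked on this contrast. The means were 115 ± 12.0 and 12.8 ± 1.15 CPM (SD, n = 4 libraries of 2 lines), a log2 difference of 3.16 with an SE of 0.10. By size, this was rank 713 of the 15153 genes. Each line labelled IRF8 KO stood above each line labelled WT, by 2.99 to 3.33 on the log2 scale. Even the lowest library had 948 counts, so Tns1 was well measured in the lines where it was low.

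Tns3, a scaffold that Src can phosphorylate, showed the reverse order. Its level was 135 and 138 CPM for MC010, 147 and 141 CPM for MC011, 531 and 529 CPM for MC654, and 509 and 518 CPM for MC659. All libraries labelled WT lay above all those labelled IRF8 KO, with the same limits as for Tns1. The means were 140.3 ± 5.30 CPM for IRF8 KO and 522 ± 9.91 CPM for WT (SD, n = 4 libraries of 2 lines), a log2 difference of -1.89 with an SE of 0.05. This was rank 1497 of the 15153 genes by size. Between single lines the difference ran from -1.96 to -1.83.

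Tns2, the member known for its need in kidney podocytes, reached 68.0 and 61.1 CPM for MC010, 112 and 105 CPM for MC011, 115 and 103 CPM for MC654, and 127 and 133 CPM for MC659. Both MC010 libraries lay below and both MC659 libraries above all the others, while MC011 overlapped MC654, so the labels overlapped. The means were 86.3 ± 25.4 and 119 ± 13.1 CPM (SD, n = 4 libraries of 2 lines), a log2 difference of -0.47 with an SE of 0.20. Against MC654, MC010 was lower by 0.75 on the log2 scale and MC011 by 0.01.

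Per length, Tns4 was the lowest tensin in every library. It had 170 and 97 counts in MC010, 73 and 56 in MC011, 111 and 79 in MC654, and 48 and 70 in MC659, which came to 0.544 to 1.49 CPM. The labels overlapped, with 1.07 ± 0.393 CPM for IRF8 KO and 0.895 ± 0.330 CPM for WT (SD, n = 4 libraries of 2 lines). The log2 difference of 0.26 had an SE of 0.36. Its direction turned to -0.31 without MC010 and to -0.09 without MC659, whereas without any 1 line Tns1 stayed between 3.03 and 3.26 and Tns3 between -1.94 and -1.88.

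**Figure D1:**
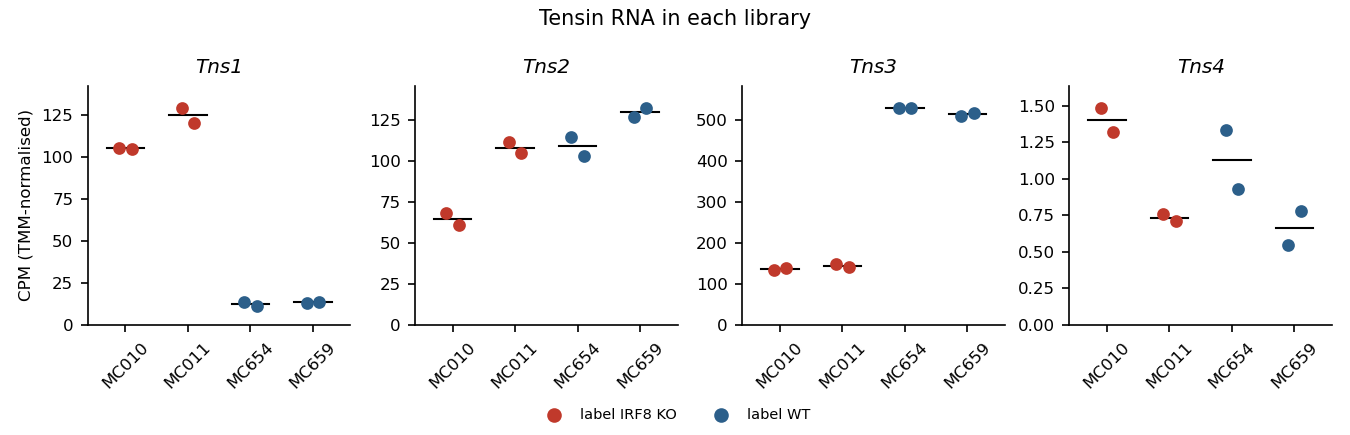
Level of each tensin in CPM (TMM-scaled, linear axes that start at 0 and differ between panels) in the 8 libraries, grouped by line, with points for single libraries, coloured by label, and black bars for the line mean. Tns1 sits at 105 CPM or more in MC010 and MC011 and at 13.7 CPM or less in MC654 and MC659, Tns3 shows the reverse, and the labels overlap for Tns2 and Tns4.

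Differences between lines of the same label were not used in choosing the genes and could be tested. Between MC010 and MC011, 2 of the 4 tensins were called, Tns2 and Tns4, against 31.6% of all genes, and 4 genes are too few to set apart from that share. Tns2 was 1.67-fold higher in MC011, with a log2 difference of -0.74 (MC010 minus MC011, 95% interval -0.88 to -0.61, edgeR adjusted p = 6.86e-08). Tns4 was 1.92-fold higher in MC010, with a log2 difference of 0.94 (0.34 to 1.54, edgeR adjusted p = 0.00912), and this call was lost without replicate 1 of MC010 (0.85, edgeR adjusted p = 0.0599). The other two moved less. Tns1 was 1.19-fold higher in MC011, a log2 difference of -0.25 that passed on its adjusted p (edgeR, 0.00538) but not on its size. Tns3 differed by -0.08 (-0.17 to 0.01, edgeR adjusted p = 0.121).

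Between the lines labelled WT, 0 of the 4 tensins were called by edgeR, against 4.95% of all genes. At an unadjusted p under 0.05 there were 2, Tns2 and Tns4, where 26.4% of all genes passed, and DESeq2 called 0 of the 4. Tns2 was lower in MC654 by 0.25 (edgeR adjusted p = 0.0139), which was short of the size threshold. Tns4 was higher in MC654 by 0.77 (0.15 to 1.39, edgeR adjusted p = 0.0945), a value that was 0.49 without replicate 1 of MC654. Tns1 differed by -0.09 (-0.26 to 0.09, edgeR adjusted p = 0.568) and Tns3 by 0.04 (-0.05 to 0.13, edgeR adjusted p = 0.563). In order of level, the lines therefore ran MC654, MC659, MC010 and MC011 for Tns1, with no difference beyond the spread between the first pair. For Tns3 the order was MC010, MC011, MC659 and MC654, and neither same-label pair differed beyond its spread. For Tns2 it was MC010, MC011, MC654 and MC659, with MC011 and MC654 overlapping, and for Tns4 it was MC659, MC011, MC654 and MC010.

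**Figure D2:**
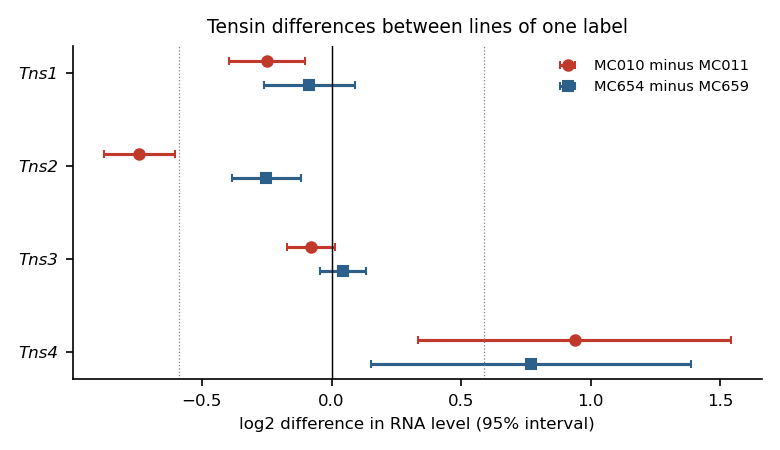
Log2 difference of each tensin between the lines of a label, MC010 minus MC011 and MC654 minus MC659, with points for the estimate, bars for the 95% interval and dotted lines at the size threshold of 0.59 in each direction. Tns2 (-0.74) and Tns4 (0.94) lie past the threshold with their adjusted p in MC010 against MC011, and Tns3 lies near 0 in both pairs.

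Levels of different tensins were compared per length, as CPM divided by kilobases of annotated exons. On that scale Tns1 made up 20.2% of the family's summed level in the libraries labelled IRF8 KO and 1.15% in those labelled WT. Tns3 made up 35.6% and 67.2%, Tns2 made up 43.5% and 31.4%, and Tns4 stayed at or below 0.916% in every library. Tns3 per length exceeded Tns1 by 1.63 to 1.89 times in the libraries labelled IRF8 KO, and by 55.3 to 67.9 times in those labelled WT. The summed family level was 30.4 to 41.9 in the first group and 67.1 to 71.7 in the second, in CPM per kilobase of exon. Thus the family's sum was higher where Tns1 was low.

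The order of Tns2 and Tns3 in the lines labelled IRF8 KO depended on the length used. Per exon length Tns2 led in MC011, with 48.8% against 31.7% for Tns3, and the libraries of MC010 overlapped, with means of 38.3% and 39.5%. Per kilobase of the longest coding sequence, Tns3 led in both lines, with 47.8% against 23.1% in MC010 and 41.0% against 31.5% in MC011. On the coding scale the share of Tns1 was 27.6% under IRF8 KO and 1.49% under WT, and Tns3 led all WT libraries on both scales.

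**Figure D3:**
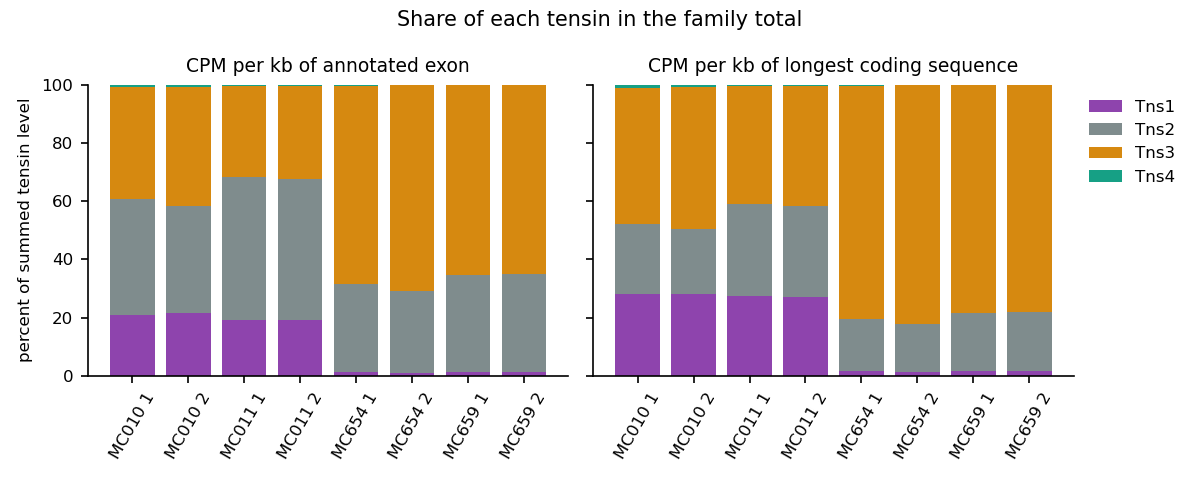
Stacked shares of the 4 tensins in the family's summed level (percent, vertical axis) in each of the 8 libraries, per kilobase of annotated exon on the left and of the longest coding sequence on the right. On the exon scale Tns1 takes 19.0% to 21.6% in the libraries labelled IRF8 KO and 1.04% to 1.23% in those labelled WT, where Tns3 takes 64.7% to 70.5%.

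Adhesion genes around the tensins were then read from 4 lists, of which 71 genes were tested. Between the labels 8 were higher and 17 lower under IRF8 KO and 46 were not called, so 35.2% were called against 22.5% of all genes. Their median log2 difference was -0.17, and that of all genes was 0.02. When the libraries of a line were summed, so that 2 lines stood against 2, edgeR called 0 of all 16927 genes it tested, list genes included. An unadjusted p under 0.05 was found for 32 of the 72 list genes in that fit (44.4%) and for 21.6% of all genes.

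Of 13 tensin partners tested, 0 were called higher and 7 lower (53.8%), with a median of -0.70. Among all genes 13.7% were called higher and 8.72% lower, and 13 genes are too few to set 0 higher apart. By edgeR 2 partners had an unadjusted p under 0.05 in the higher direction, and DESeq2 called 1 partner higher. Both chains of the fibronectin receptor were lower under IRF8 KO. Itgb1, the beta 1 integrin chain whose tail binds tensins, was at 741 to 901 CPM under IRF8 KO and 1431 to 1548 CPM under WT (log2 -0.84, edgeR adjusted p = 0.000109), and its alpha chain Itga5 was lower by 0.85 on the log2 scale. Their ligand fibronectin (Fn1) was at 1142 to 2112 CPM under IRF8 KO and 7779 to 8132 CPM under WT (log2 -2.33, edgeR adjusted p = 0.000159). Egfr, the EGF receptor, was at 23.3 to 29.0 CPM under WT and 1.39 to 5.13 CPM under IRF8 KO (log2 -3.01, edgeR adjusted p = 0.00103). The integrin chain Itgb3 (-0.99), the receptor kinase Axl (-0.80) and the RhoGAP Stard13 (-0.70) were also called lower. The RhoGAP Dlc1, which tensins bind, had a log2 difference of -0.01, but MC010, at 19.5 CPM, and MC011, at 67.9 CPM, were called different.

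Focal adhesion scaffolds and actin linkers had 3 higher and 10 lower of 34 tested (38.2%, against 22.5% of all genes), with a median of -0.29. Lower were Tgfb1i1, a relative of paxillin (log2 -1.84, edgeR adjusted p = 9.17e-05), Fermt2, the integrin activator kindlin-2 (-1.03), and Ilk, the integrin-linked pseudokinase (-0.85), which was at 169 to 178 CPM under IRF8 KO and 303 to 319 CPM under WT. The LIM proteins Pdlim5 (-1.22) and Fhl2 (-1.20) and the actin crosslinker Flnc (-0.84) were lower too. Higher were Sorbs3, the vinculin binder vinexin (log2 2.25, edgeR adjusted p = 0.000178), at 95.2 to 112 CPM against 15.0 to 27.2 CPM, as well as Fermt3 (1.13) and Parvb (0.95). Fermt3 was low and near its threshold (edgeR adjusted p = 0.0456). Its line means were 2.13 CPM for MC010, 0.908 CPM for MC011, 0.589 CPM for MC654 and 0.796 CPM for MC659. Tln1, the talin that activates integrins, had a log2 difference of -0.36, short of the size threshold.

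Focal adhesion kinases and adaptors had 5 higher and 0 lower of 22 tested (22.7%, near the share of all genes) and a median of 0.08. By edgeR 3 had an unadjusted p under 0.05 in the lower direction, and DESeq2 called 0 genes lower. The docking protein Efs had 93 to 1405 counts under IRF8 KO and 4 to 11 under WT (log2 6.21, edgeR adjusted p = 0.00238), and within IRF8 KO it averaged 12.2 CPM for MC010 but 1.20 CPM for MC011. Bcar3 (2.73), which binds docking proteins of that family, the focal adhesion kinase relative Ptk2b (2.28), the Rac regulator Elmo1 (1.68) and the ArfGAP Asap2 (1.45) were also higher. Focal adhesion kinase itself, Ptk2, had a log2 difference of 0.16 (edgeR adjusted p = 0.452). Fermt1, Flna, Arhgef6, Pak3 and Stard8 were not in the count table, and why they are missing was not tested.

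**Figure D4:**
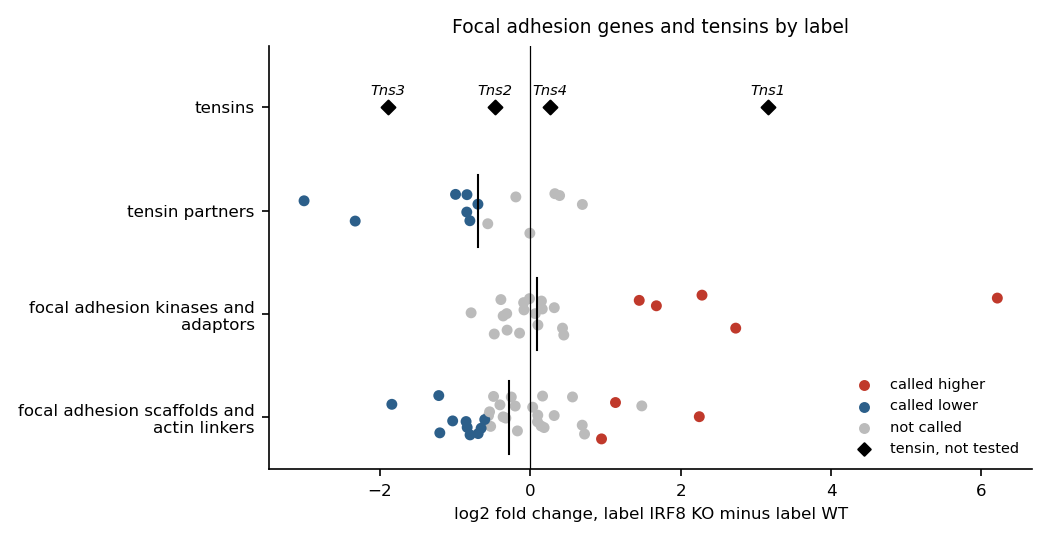
Log2 difference between libraries labelled IRF8 KO and WT for the tested genes of 3 adhesion lists, with the tensins as black diamonds, called genes in colour, other genes in grey and a black bar at each list's median. The tensin partners have 7 called lower and 0 higher, and the kinases and adaptors 5 called higher and 0 lower. Of all genes, 13.7% were called higher and 8.72% lower. Tns1 (3.16) and Tns3 (-1.89), which were picked on this axis, lie on opposite sides of 0.

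Of the 6 smooth muscle markers tested, 2 were called lower, Acta2 (log2 -1.83) and Tagln (-4.18), and 4 were not called, where 8.72% of all genes were called lower. The summed level of the 7 genes in the table was 168 to 249 CPM under IRF8 KO and 554 to 815 CPM under WT, and without Acta2 and Tagln the line means were 82.7 CPM for MC010, 92.5 CPM for MC011, 115 CPM for MC654 and 98.5 CPM for MC659. Acta2 and Tagln, genes of the contractile apparatus, are also expressed by stress-fiber-rich fibroblasts, and their part in the tensin differences was not tested. Between MC010 and MC011, 21 of the 71 adhesion genes were called (29.6%, against 31.6% of all genes), and between MC654 and MC659 it was 3 (4.23%, against 4.95%).

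The genes with the profile most like each tensin were found by the root mean square (RMS) difference of log2 CPM, centred on each gene's mean, over the 8 libraries. The 5 nearest to Tns1 among 10688 genes were Ston2, Cthrc1, Podxl, Omd and Fam43a, at 0.162 to 0.203. All were high in MC010 and MC011, as Podxl shows with 63.3 and 88.7 CPM there and 9.02 and 11.1 CPM in MC654 and MC659. Nearest to Tns3 were Bhlhe40, Gas2, Kctd11, Cyr61 and Gpt2, at 0.106 to 0.144. Bhlhe40, a repressor of the clock and hypoxia programs, was at 28.6 and 29.1 CPM in MC010 and MC011 and at 119 and 124 CPM in MC654 and MC659. Cyr61, a secreted matrix protein that binds integrins, was at 182 and 165 CPM and at 568 and 685 CPM in the same order.

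Nearest to Tns2, which differed less between the labels than Tns1 and Tns3, were Mapk3, Ssbp2, Hectd3, Zfp526 and Foxk1, at 0.0713 to 0.0778. Mapk3, the kinase ERK1, was at 125 CPM in MC010 and at 196 to 248 CPM in the other lines. Tns4 was followed by Etv4, Kifc3, Rgs17, Plau and Nr4a1, at 0.166 to 0.226 among 10689 genes, and these were highest in MC010. Between members the RMS difference was larger, from 0.742 for Tns2 with Tns3 to 2.53 for Tns1 with Tns3. The profiles rest on 4 lines, so a gene that differs by label in the same measure is near by that alone.

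**Figure D5:**
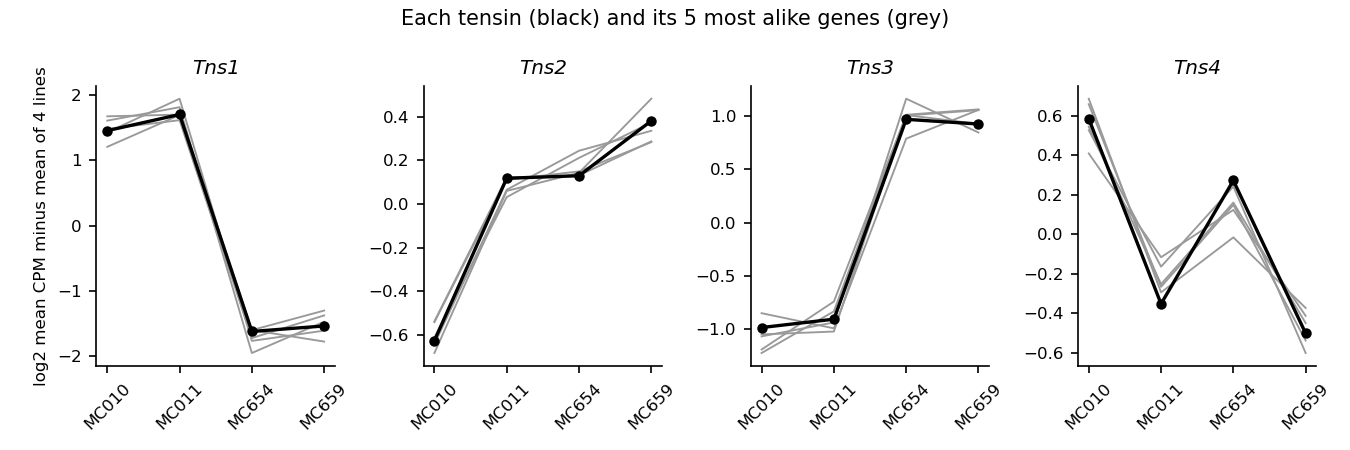
Log2 of the mean CPM of each of the 4 lines, minus its mean over the lines, for each tensin (black) and the 5 genes with the most similar profile (grey), 1 panel a member. The followers of Tns1 and Tns3 trace opposite steps between the labels, those of Tns2 are low in MC010, and those of Tns4 are high in MC010.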

How the data were processed

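Stranded mRNA libraries were made from 8 samples of 4 cell lines. Per the labels, the authors aligned reads with STAR 2.7.3a, counted them per gene with HTSeq 0.11.2 (versions from the submitters' processing notes, and the study's methods give others) on mm10 (GRCm38.p6), and normalised with DESeq2. The strand setting of the counting is not given in the sources used here. The deposited table holds raw counts, which were tested here, beside normalised counts (a signal divided by size factors) and the authors' own comparison columns (fold changes and p-values), neither of which was used. The deposited genes had at least 20 counts in total.

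Counts were filtered with filterByExpr, scaled by TMM and tested with edgeR 4.0.16 (quasi-likelihood, robust; R 4.3.3), with Benjamini-Hochberg adjustment over all 15153 genes. A gene was called at an adjusted p under 0.05 and a log2 fold change over 0.59 in size. The label fit compared 4 with 4 libraries, and the line fit had 1 group per line. DESeq2 1.42.0, limma 3.58.1, other scalings, no filter, a replicate block and left-out libraries or lines were alternatives. The fits were tested on simulated data, with counts drawn independently for each library. For the label fit these held no differences between lines of a label, so that test does not cover such differences. The intervals of line differences cover the spread between libraries. Per-length levels used the exon union or the longest coding sequence of the GENCODE annotation for GRCm38, the latter chosen after seeing the data. Promoter windows came from RefSeq (GRCm38.p6), and 3 of the 4 members had one.

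Of the 4 adhesion lists, 1 list of 2 tested genes and some single genes are counted in the totals but not reported here. Members and lists were chosen with earlier results of these data known. Named genes were the 4 tensins, Irf8, up to 6 called genes per list and direction with the largest change, list genes given as background of a count, the 5 most similar profiles per tensin (genes whose mean log2 CPM was not under 1), and marker genes.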

Additional observations from a re-analysis of the deposited data

Results flagged for a closer look

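MC010 and MC011 differed from the lines labelled WT by unequal amounts for Tns2 and Tns4, by a test of the difference itself. Because both are set against the same WT lines, this difference equals MC010 minus MC011, and it was -0.74 on the log2 scale for Tns2 (edgeR adjusted p = 6.86e-08) and 0.94 for Tns4 (edgeR adjusted p = 0.00912).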

How the results depend on the processing

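The calls of the tensins between lines kept their side of the threshold under DESeq2, 2 other scalings, no filter and the fit of the 4 libraries alone. With no threshold on size, Tns1 in MC010 against MC011 (-0.25) and Tns2 in MC654 against MC659 (-0.25) were also called. These 2 differences varied with single libraries. With 1 library left out, they ran from -0.303 to -0.187 for Tns1 and from -0.332 to -0.174 for Tns2. Leaving out 1 library at a time gave 0.85 to 1.04 for Tns4 in MC010 against MC011, with the call lost at the lower end, and -0.24 to 0.0588 for Tns1 in MC654 against MC659, a reversal of a difference that was never called, without MC654 replicate 2. The uncalled difference of Tns4 in MC654 against MC659 ran from 0.49 to 1.05. By label, Tns4 turned to -0.31 without MC010 and -0.0912 without MC659. Among the adhesion genes, 8 higher and 17 lower became 12 and 30 with no size threshold, 13 and 22 without MC011, and 5 and 16 in limma-voom with a random effect of line. They ran from 7 to 11 and from 15 to 18 with 1 library left out. With line sums they became 0 and 0, so no adhesion call held where each line counts once. In that fit 0 of all genes were called, so its calls cannot set the adhesion genes apart from the rest. Coding in place of exon length moved the shares of Tns1, Tns2 and Tns3 under IRF8 KO from 20.2%, 43.5% and 35.6% to 27.6%, 27.3% and 44.4%, and under WT from 1.15%, 31.4% and 67.2% to 1.49%, 18.6% and 79.6%. Library numbers did not pair the samples (correlations of deviations -0.03 to 0.06), and a replicate block changed no tensin call (Tns2 -0.74 and Tns4 0.94 in MC010 against MC011) and gave 7 higher and 17 lower adhesion genes. Tns4 had 48 to 170 counts a library, the fewest of the 4 tensins.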

Other observations

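The surroundings of the tensin genes were read after their values were seen. Within 1 Mb of Tns3, 4 other genes were tested, of which 2 were called higher under IRF8 KO and 0 lower, with a median log2 difference of 1.56, while Tns3 itself was lower. Within the same distance of Tns1, 2 of 19 genes were called higher and 3 lower, with a median of 0.13. For Tns2 it was 9 higher and 4 lower of 43, and for Tns4 5 higher and 1 lower of 29. Over all genes, 13.7% were called higher and 8.72% lower.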
